A study of Homo sapiens with 8 samples.

Results

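Interferon-stimulated effector genes are the genes that a cell switches on when interferon binds its receptor and whose proteins carry out the response. The 52 genes described here were chosen by name, in groups of known role, and not by a limit on measured values. Earlier results of these data were known at that time, so counts of members beside all genes are no independent test. The genes were looked up among the 41000 probes of the arrays mainly by the accession of each probe. At least 1 probe was found for 51 of the 52 genes, 81 probes in all, out of 17297 gene symbols matched to the arrays, and no probe was matched to CMPK2. The probes of IFI27 got their name only from the study's lists of changed genes, so the calls of IFI27 below are no support. A gene with several probes is given by its brightest probe, and 22 members have more than 1.

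Type I and type III interferons signal through receptors that carry the kinases JAK1 and TYK2, which phosphorylate STAT transcription factors. A complex of STATs with IRF9 binds the interferon-stimulated response element (ISRE) in the promoters of target genes, whereas interferon gamma acts through the gamma-activated site (GAS). The targets block viruses at many steps: IFIT and OAS proteins act on viral RNA, MX proteins trap viral particles, IFITM proteins and tetherin act at membranes, and ISG15 is attached to other proteins in the way ubiquitin is. Some tumour cell lines express these genes without infection.

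CAPAN-2 cells come from a human pancreatic adenocarcinoma and grow as an established line, and 2 knockdowns were compared with their own controls on 8 Agilent 2-colour arrays. The ErbB2-KD cells carry a pGeneClip puromycin vector that encodes a short hairpin RNA (shRNA) against the receptor tyrosine kinase ErbB2, and their controls (NT) carry the empty vector. The 4 ErbB2-KD arrays held the clones EV7, EV12, EV9 and EV18, in this order. The MUC4-KD cells carry a pRetroSuper retroviral vector with an shRNA against the membrane-bound mucin MUC4, selected with G418, and their controls (Mock) carry the empty retroviral vector. The clones on these 4 arrays are not named in the labels. On every array the other channel held a pool of RNA from 4 control clones, so each pool counts as 1 control sample and the spread between control clones enters no test. Stable clones of 1 cell line can differ for reasons other than the shRNA, and clone and knockdown cannot be told apart on a single array. The knockdown RNA was in Cy5 on ErbB2-KD arrays 1 and 2 and on MUC4-KD arrays 3 and 4, and in Cy3 on the others.

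All values below are log2 ratios of the RNA labelled as knockdown over the RNA labelled as control, by the dyes given in the labels, so that a ratio of -1 is a 2-fold lower signal. For the MUC4 experiment this direction is opposite to that of the study's own gene list, for all 1998 probes read from it. In ErbB2-KD all 254 probes read had the same direction as the list. A check of the targeted genes does not settle the MUC4 direction in favour of the labels. The study is not of one direction itself: its list has EPSTI1, a member, as higher, whereas its text counts EPSTI1 among genes that went down. By PCR the study found MUC4 and CA9 lower and TGFB1 higher in its MUC4-KD clones. It reports these changes as matching its array data, whose listed direction is opposite to the labels. Immunoblots also showed the loss of MUC4. These assays do not show which RNA carried which dye on these arrays. ERBB2 had ratios of -0.58, -0.32, -0.33 and -0.38 in ErbB2-KD on its brighter probe, a mean of -0.40 that did not pass the test (adjusted p = 0.145 by limma). MUC4 did not pass as lower in the RNA labelled MUC4-KD: its brightest probe gave 0.47, 0.39, 0.28 and -0.05 (adjusted p = 0.167), and of its other 3 probes, 2 were higher past the threshold, with means of 1.84 and 1.34 (adjusted p = 0.00804 and 0.0355). The remaining MUC4 probe had a mean of 0.41 (adjusted p = 0.0984). The words "labelled MUC4-KD" are kept for this reason, and every direction in that experiment, with every likeness or order between the experiments, turns if the 2 RNAs were exchanged. The 7 markers of ductal epithelium were well above background in all 16 channels. None of the 3 fibroblast markers with a probe and none of the 3 endothelial markers was above background in all 16, and of 5 leukocyte markers CD14 and CD68 were.

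The promoters of the members were searched for both elements, because the list is defined by the response that acts through them. RefSeq promoter windows on the build GRCh38.p14, from 250 bases before to 50 bases after a transcription start, were at hand for 42 of the 52 members (58 windows). The core of the ISRE, GAAANNGAAA on either strand (TTTCNNTTTC on the other), was found in 30 of the 42 genes, or 71.4%, against 4.38% of all 27303 genes with a window. GAS, written TTCNNNGAA, which reads the same on both strands, was found in 11 of the 42, or 26.2%, against 9.38% of all. Such a match is a description of the letters in the window and no evidence of binding. The following stretches hold the core in capitals with the bases around it, written 5′ to 3′ on the strand of the gene, and are shown for members whose array values are described below.
IFIT1 (chr10:89392492-89392531, plus strand): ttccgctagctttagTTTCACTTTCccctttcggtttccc
IFIT3 (chr10:89327860-89327899, plus strand): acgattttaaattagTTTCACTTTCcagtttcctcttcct
ISG15 (chr1:1013375-1013414, plus strand): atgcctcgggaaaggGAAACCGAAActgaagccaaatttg
IFI27 (chr14:94110613-94110652, plus strand): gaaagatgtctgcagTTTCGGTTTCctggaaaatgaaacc
IFI44L (chr1:78620360-78620399, plus strand): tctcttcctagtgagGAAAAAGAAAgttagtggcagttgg
IFI6 (chr1:27672283-27672322, minus strand): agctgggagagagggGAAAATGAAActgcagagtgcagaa
RSAD2 (chr2:6877617-6877656, plus strand): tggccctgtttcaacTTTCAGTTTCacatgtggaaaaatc
BST2 (chr19:17405736-17405775, minus strand): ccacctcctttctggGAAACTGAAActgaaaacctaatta
IFITM1 (chr11:313985-314024, plus strand): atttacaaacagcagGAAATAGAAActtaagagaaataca
RTP4 (chr3:187368328-187368367, plus strand): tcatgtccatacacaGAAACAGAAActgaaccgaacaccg
PARP9 (chr3:122564317-122564356, minus strand): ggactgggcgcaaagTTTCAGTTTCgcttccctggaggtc
The core of IFIT1 starts 116 bases before the transcription start, that of ISG15 107, that of IFI27 108 and that of IFI44L 73. A second core lies next to it in IFIT1 and ISG15, and IFI44L holds the same stretch of 40 bases a second time upstream. PARP9 and DTX3L are transcribed away from each other, and the stretch printed for PARP9 is the same DNA, on the other strand, as the core of DTX3L. Among members with a window and a probe, the 30 with a core had a median ratio of -0.76 in ErbB2-KD and -1.74 in labelled MUC4-KD, and the 11 without had -0.56 and -1.96. HERC6, SP100, SP110, IFI16, XAF1, UBE2L6, TRIM25 and KLHDC7B are among those without a core in these windows.

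Nearly the whole list was lower in the RNA labelled MUC4-KD. Of 51 members tested, 45 were lower and 1, SP100, was higher at an adjusted p under 0.05, where 23.6% of all 12339 genes tested passed in either direction, 11.1% as lower and 12.5% as higher. At an unadjusted p under 0.05, 50 members were lower against 21.3% of all genes. A mean ratio below 0 was seen for 50 members (6311 of the 12339 genes) and a ratio below 0 on all 4 arrays for 47 (25.1% of all genes). The median member stood at -1.93 and the range ran from -3.99 to 0.79, with the median of all genes at -0.013. At least 2-fold lower were 42 members (3.47% of all genes), at least 4-fold lower 22 (63 of the 12339 genes) and at least 8-fold lower 7 (16 of the 12339). Since these are RNA ratios of whole cultures, fewer cells that express a gene and less RNA per cell cannot be told apart. The count of 46 calls was 28, 30 or 18 without array 1, 2 or 3 and 51 without array 4. Of all genes 3.3%, 5.43%, 0.948% and 37.8% passed in these fits, in this order, against 23.6% with all arrays. The count of members was 0 where arrays were centred on their median in place of loess, with 0 calls over all genes. It was 5 with the methods' t-test after Benjamini-Hochberg adjustment, where 0.665% of all genes passed. The median ratio of the members stayed between -1.80 and -2.18 over all alternatives.

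In ErbB2-KD most of the members also had a mean below 0, with a median nearer to it. A mean below 0 was found for 49 of 51 members, against 6098 of 12063 genes, and 29 were below 0 on all 4 arrays, against 15.1% of all genes. The median was -0.79 and the range -3.15 to 0.36, against a median of -0.0035 over all 12063 genes. By the brightest probe only IFI44L passed the adjusted threshold (its knockdown RNA was well above background on 2 of 4 arrays), where 2.00% of all genes did in either direction, 1.21% as lower and 0.788% as higher. The second DTX3L probe passed too, at -0.99, -0.93, -1.12 and -0.53 (limma adjusted p = 0.0435). It was well above background in both channels on all 4 arrays. At an unadjusted p under 0.05, 27 members were lower against 11.5% of all genes, and 20 members were at least 2-fold lower against 2.36%. IFI44L, OAS2, RSAD2 and TRIM22 entered this test through the NT channel alone, so the call of IFI44L is no support for the list. With a filter on both channels these 4 were not tested, and of the other 47 members none passed by limma and 28 had an unadjusted p under 0.05. In labelled MUC4-KD RSAD2 alone entered in this way, and 45 of the other 50 passed with that filter. The number of members called at that threshold ranged from 0 to 15 over the alternatives, with 15 in a fit that takes 1 spread per probe over all 8 arrays, and 0 when array 1, 2 or 3 was left out. Of all genes 5.73% passed in that fit, and 0%, 2.88% and 0.0249% without array 1, 2 or 3.

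**Figure D1:**
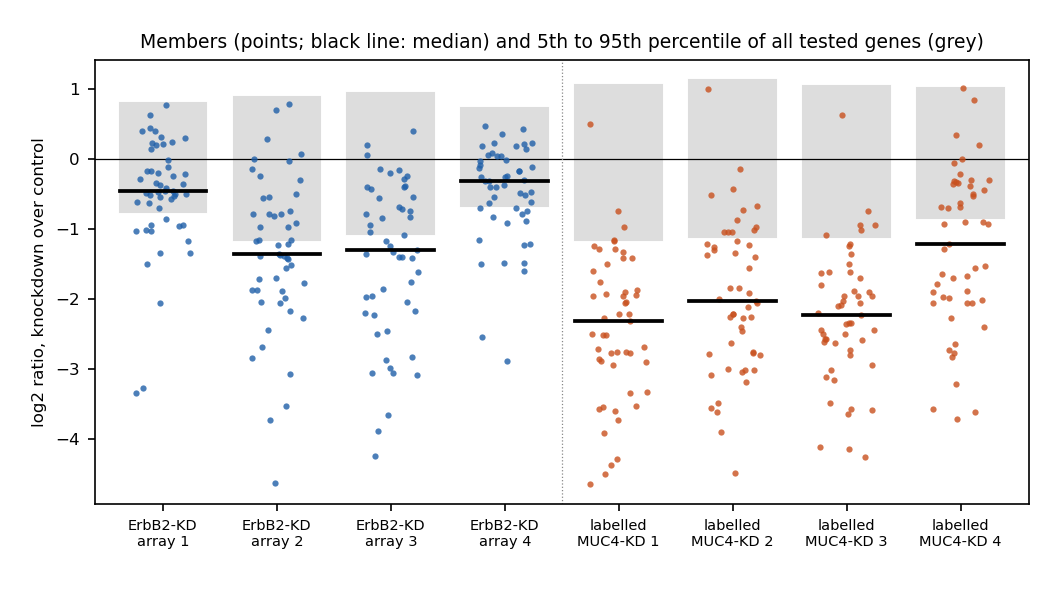
Log2 ratio, labelled knockdown over labelled control, of the 51 members on each array (points) with their median (black line), beside the 5th to 95th percentile of all genes tested in either experiment (grey). The member medians lie at -0.45, -1.36, -1.30 and -0.32 on the ErbB2-KD arrays and at -2.31, -2.03, -2.23 and -1.21 on the labelled MUC4-KD arrays.

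The arrays of ErbB2-KD fell into unlike levels for these genes. Clones EV12 and EV9 (arrays 2 and 3) had member medians of -1.36 and -1.30, with 31 and 30 members at least 2-fold lower. Clones EV7 and EV18 (arrays 1 and 4) had medians of -0.45 and -0.32, with 10 and 9 such members. The spread over all genes tested in either experiment differed in the same way. Its 5th percentile was -1.15 and -1.07 on arrays 2 and 3, against -0.75 and -0.67 on arrays 1 and 4. The part of this spread in the counts was not tested. Each of these pairs of clones holds 1 array with the knockdown in Cy5 and 1 in Cy3. Of the labelled MUC4-KD arrays, array 4 was the least low, with a median of -1.21 and 26 members at least 2-fold lower against 43 to 48 on the other 3. The 5th percentile of all genes was -0.84 on array 4 and -1.15, -1.11 and -1.12 on arrays 1 to 3. On array 4 of labelled MUC4-KD 56.7% of all probes were well above background in the control channel, the smallest share of the 8, and the 25 dimmer members had a median of -0.68 there against -1.89 for the 26 brighter ones. On arrays 1 to 3 of that experiment the dimmer members had medians of -2.31, -1.998 and -2.36. The part of the signal level in the values of array 4 was not tested.

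**Figure D2:**
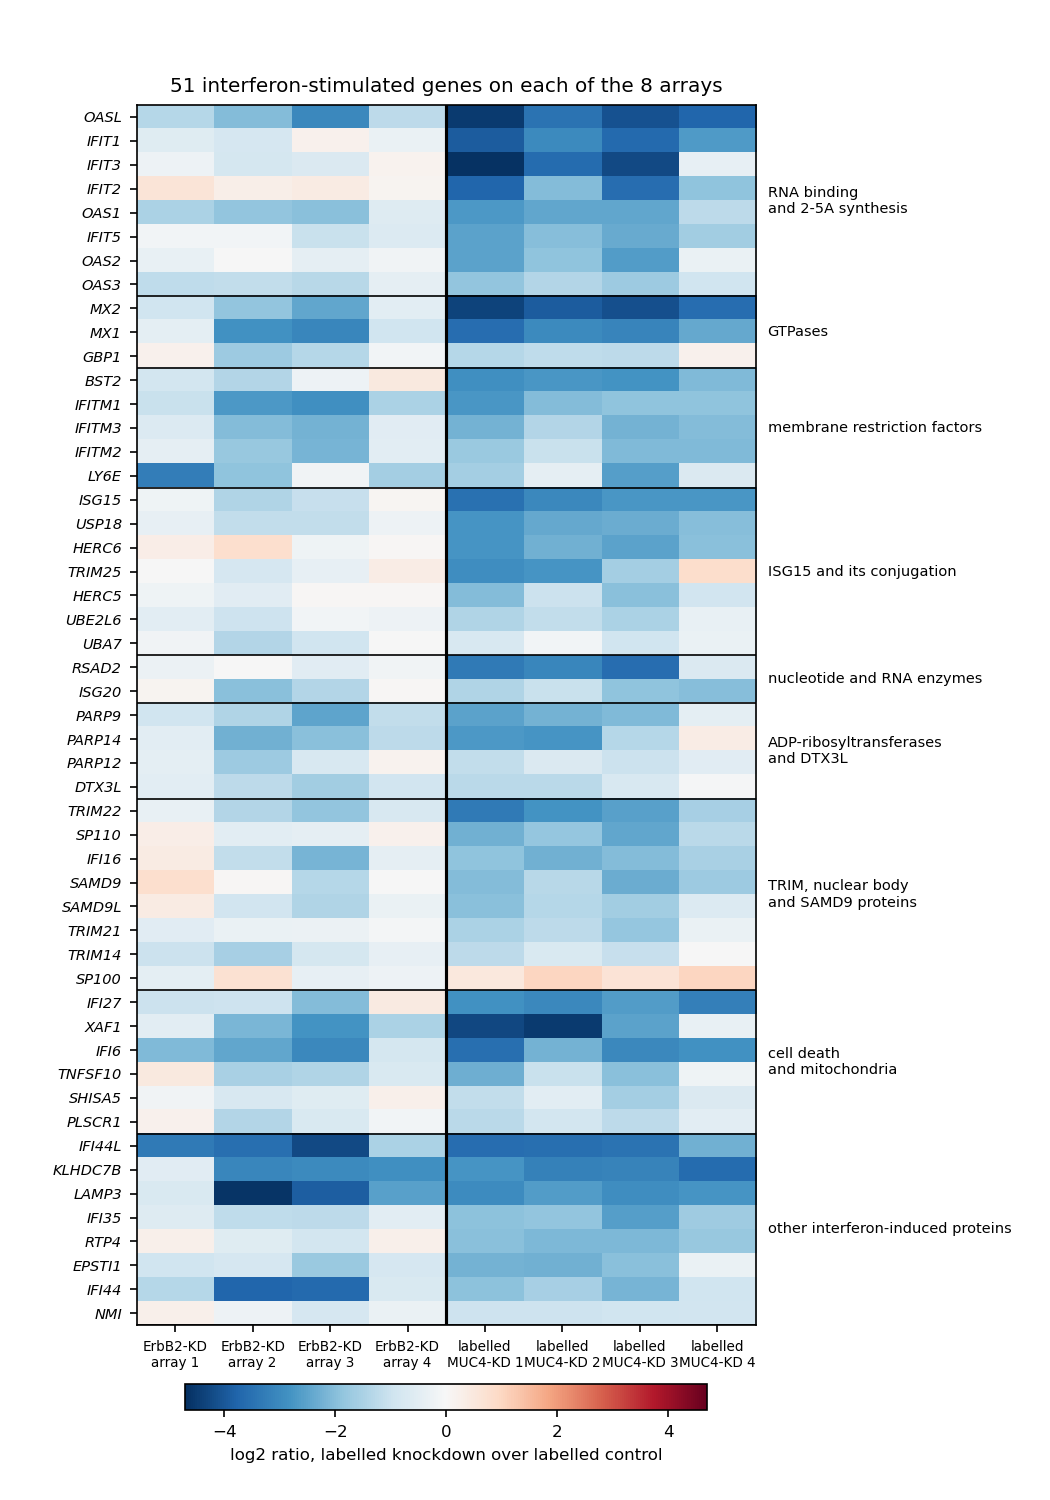
Log2 ratio of each member (rows, by group of role and then by mean in labelled MUC4-KD) on each array (columns); blue is lower and red higher in the RNA labelled as knockdown, on 1 scale from -4.7 to 4.7. The right block is blue for all rows but SP100 on arrays 1 to 3, and the left block is darkest for IFI44L, KLHDC7B, LAMP3 and IFI44.

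Between the experiments as labelled, the medians of the IFIT and OAS genes lay farthest apart of the 9 groups, by 2.07, whereas with the MUC4 sign turned this was so of the GTPases, at -1.44 and 3.02. IFIT proteins bind viral RNA that lacks the cap methylation of the host, and OAS proteins make the 2-5A that activates RNase L, while OASL binds RNA sensors instead. All 8 were lower past the threshold in labelled MUC4-KD (median -2.50) and none in ErbB2-KD (median -0.44). OASL gave ratios of -4.50, -3.49, -4.11 and -3.71 in labelled MUC4-KD, 15.5-fold lower in the mean and rank 3 from the lowest of all 12339 genes (adjusted p = 0.00138). Its ErbB2-KD ratios were -1.34, -2.05, -3.05 and -1.22 (mean -1.91 ± 0.84, SD, n = 4, adjusted p = 0.0528). It was low on all 8 arrays, and the arrays of one experiment did not overlap those of the other.

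IFIT1 stood at -3.92, -3.003, -3.64 and -2.65 on the labelled MUC4-KD arrays, a 9.86-fold lower mean (adjusted p = 0.00232). On the ErbB2-KD arrays it was at -0.57, -0.79, 0.20 and -0.29, with 1 value above 0. IFIT2 gave -3.72, -2.05, -3.57 and -1.89 in labelled MUC4-KD against 0.62, 0.29, 0.40 and 0.14 in ErbB2-KD, the only member above 0 on every ErbB2-KD array, with an adjusted p there of 0.213. Both genes were low on all 4 arrays of labelled MUC4-KD, and neither set overlapped its ErbB2-KD values. IFIT3 gave -4.63, -3.62, -4.25 and -0.39 in labelled MUC4-KD (adjusted p = 0.0292) and -0.25, -0.82, -0.69 and 0.18 in ErbB2-KD. Its array 4 of labelled MUC4-KD was far above the other 3, and without that array the mean was -4.17. IFIT5 (means -2.12 and -0.48) and the synthetases OAS1 (-2.20 and -1.49), OAS2 (-1.84 and -0.23) and OAS3 (-1.47 and -1.02) complete the group, in the order labelled MUC4-KD and ErbB2-KD. OAS2 was dim: the knockdown RNA was well above background on 2 of 4 ErbB2-KD arrays, and the Feature Extraction log ratios put its mean there at -1.63 and that in labelled MUC4-KD at -2.91.

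Among the GTPases, the antiviral proteins MX1 and MX2 were low in both experiments. MX2 had the lowest member mean, with -4.37, -3.90, -4.13 and -3.57 in labelled MUC4-KD, or 15.9-fold lower and rank 2 from the lowest of all genes (adjusted p = 0.000988). In ErbB2-KD its ratios were -0.95, -1.87, -2.46 and -0.48 (adjusted p = 0.105). MX1 gave -3.59, -2.998, -3.11 and -2.39 in labelled MUC4-KD (8.12-fold lower, adjusted p = 0.00232) and, in ErbB2-KD, -0.45, -2.84, -3.08 and -0.92 (adjusted p = 0.134). For both genes clones EV12 and EV9 carried most of the ErbB2-KD mean. GBP1, a guanylate-binding protein that responds chiefly to interferon gamma, had means of -0.90 in labelled MUC4-KD and -0.73 in ErbB2-KD and passed in neither (adjusted p = 0.0638 and 0.331).

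The membrane restriction factors IFITM1, IFITM2, IFITM3, BST2 (tetherin) and LY6E act at the cell surface or in endosomes. All 5 passed as lower in labelled MUC4-KD, with means from -1.32 to -2.62, and 4 of the 5 were below 0 on every ErbB2-KD array, with means from -0.51 to -2.01 for the group. IFITM1 gave -1.03, -2.68, -2.87 and -1.48 in ErbB2-KD (mean -2.01 ± 0.90, SD, n = 4, adjusted p = 0.0536) and -2.75, -2.03, -1.89 and -1.88 in labelled MUC4-KD. All labelled MUC4-KD values of IFITM1 lay within the range of its ErbB2-KD values. BST2 gave -2.88, -2.75, -2.79 and -2.06 in labelled MUC4-KD (6.15-fold lower, adjusted p = 0.00232) and -0.86, -1.39, -0.25 and 0.47 in ErbB2-KD, with array 4 above 0. LY6E, a GPI-anchored protein, was lowest on clone EV7, with ErbB2-KD ratios of -3.26, -1.89, -0.15 and -1.59, which was so of no other member of the group. Its labelled MUC4-KD ratios were -1.60, -0.42, -2.58 and -0.69 (adjusted p = 0.0486).

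ISG15 and the enzymes that attach or remove it split within the group. ISG15 itself gave -3.52, -3.01, -2.72 and -2.72 in labelled MUC4-KD (7.96-fold lower, adjusted p = 0.00191) against -0.20, -1.43, -1.09 and 0.09 in ErbB2-KD (adjusted p = 0.280). The protease USP18, which removes ISG15 from its targets and holds back the receptor IFNAR2, had means of -2.37 in labelled MUC4-KD and -0.74 in ErbB2-KD. The conjugating enzyme UBE2L6 had -1.11 and -0.47 in the same order, and the ligase HERC5 -1.48 and -0.17. HERC6, a relative of HERC5, gave -2.76, -2.26, -2.50 and -1.96 in labelled MUC4-KD (adjusted p = 0.00232) and 0.30, 0.78, -0.19 and 0.06 in ErbB2-KD, where 3 of 4 arrays were above 0. UBA7, the activating enzyme, had the mean nearest 0 in labelled MUC4-KD, and gave -0.75, -0.14, -0.94 and -0.33 there and -0.17, -1.36, -0.94 and -0.03 in ErbB2-KD (adjusted p = 0.0630 and 0.260). TRIM25, a ligase of the RNA sensor RIG-I, did not pass on its brightest probe, which ran from -2.90 to 0.84 over the labelled MUC4-KD arrays (adjusted p = 0.106). Its second probe was between -0.67 and -1.12 there and passed as lower (adjusted p = 0.0122).

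Of the nucleotide and RNA enzymes, RSAD2 (viperin) makes a chain-terminating nucleotide and ISG20 is an exonuclease. RSAD2 gave -3.34, -3.08, -3.58 and -0.68 in labelled MUC4-KD (adjusted p = 0.0203) and -0.29, -0.03, -0.54 and -0.17 in ErbB2-KD. Its second probe was not well above background in the labelled MUC4-KD RNA on any array and was at least 2.75-fold lower there (adjusted p = 0.0412). Both RSAD2 probes entered that test through the Mock channel alone, so neither p supports the direction. In ErbB2-KD the knockdown RNA was well above background for RSAD2 on 1 of 4 arrays, and the Feature Extraction log ratios put its mean at -1.98. In labelled MUC4-KD it was so on 3 of 4 arrays, with a Feature Extraction mean of -5.16 against -2.67 by the values above. ISG20 had a labelled MUC4-KD mean of -1.58 (adjusted p = 0.00712) and an ErbB2-KD mean of -0.80 (adjusted p = 0.346).

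The ADP-ribosyltransferases PARP9, PARP12 and PARP14 and the ubiquitin ligase DTX3L, which works as a pair with PARP9, had close group medians as labelled, -1.27 in ErbB2-KD and -1.23 in labelled MUC4-KD. PARP9 gave -0.94, -1.41, -2.49 and -1.16 in ErbB2-KD (adjusted p = 0.0611) and -2.51, -2.21, -2.06 and -0.44 in labelled MUC4-KD (adjusted p = 0.0223). PARP14 gave -0.51, -2.27, -1.95 and -1.23 in ErbB2-KD and -2.69, -2.77, -1.36 and 0.34 in labelled MUC4-KD (adjusted p = 0.0775 and 0.0716). In labelled MUC4-KD both were highest on array 4 and below -1 on the other 3. DTX3L, which shares its promoter region with PARP9, had means of -1.06 in ErbB2-KD and -0.84 in labelled MUC4-KD, and PARP12 had -0.68 and -0.84.

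Proteins of the TRIM family, of nuclear bodies and of the SAMD9 pair held the only exception in labelled MUC4-KD. SP100, a core protein of the PML nuclear bodies, was higher there, at 0.50, 1.00, 0.63 and 1.01 (adjusted p = 0.0179), and gave -0.47, 0.70, -0.39 and -0.26 in ErbB2-KD. This rests on its brightest probe: its second probe gave -0.72, -0.57, -0.48 and 0.79 and its other dimmer probe -2.19, -1.76, -1.27 and 0.02 in labelled MUC4-KD, and the mean of all 3 probes was -0.25. The call was also lost without array 1, 2 or 3. SP110, a relative of SP100, was at -2.27, -1.84, -2.44 and -1.28 (adjusted p = 0.00585) and, in ErbB2-KD, at 0.32, -0.51, -0.43 and 0.21. SAMD9, a cytoplasmic antiviral factor, was at -2.05, -1.29, -2.34 and -1.70 (adjusted p = 0.00534) and, in ErbB2-KD, at 0.77, 0.07, -1.36 and -0.02, where its values ran from well above to well below 0. These 3 were the members nearest 0 in the ErbB2-KD mean. TRIM22 had means of -2.56 in labelled MUC4-KD and -1.09 in ErbB2-KD, where its knockdown RNA was well above background on 3 of 4 arrays and the Feature Extraction mean was -2.49. In this order the nuclear DNA sensor IFI16 had -1.93 and -0.83, SAMD9L -1.39 and -0.56 and TRIM21 -1.20 and -0.30. TRIM14 gave -1.24, -0.73, -1.08 and -0.0023 in labelled MUC4-KD, with array 4 level with its control (adjusted p = 0.0545), and -1.03, -1.56, -0.83 and -0.38 in ErbB2-KD (adjusted p = 0.0882). Of its dimmer probes, those with labelled MUC4-KD means of -0.65 and -1.16 passed as lower (limma adjusted p = 0.0491 and 0.0441). The dimmest, at -0.42, did not (adjusted p = 0.0919).

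Members tied to cell death and mitochondria all passed as lower in labelled MUC4-KD. IFI6 and IFI27 are small hydrophobic proteins of mitochondria and the endoplasmic reticulum. IFI27 gave -2.86, -3.03, -2.61 and -3.21 in labelled MUC4-KD (7.61-fold lower, adjusted p = 0.00137) against -1.02, -0.97, -2.04 and 0.43 in ErbB2-KD. IFI6 gave -3.53, -2.21, -3.02 and -2.83 (7.44-fold lower, adjusted p = 0.00281) and, in ErbB2-KD, -2.06, -2.44, -3.05 and -0.82 (adjusted p = 0.0536). Thus IFI6 was low on all 8 arrays, whereas clone EV18 had IFI27 above its control. XAF1, which antagonises the apoptosis inhibitor XIAP, gave -4.28, -4.48, -2.50 and -0.35 (adjusted p = 0.0361) and, in ErbB2-KD, -0.48, -2.16, -2.82 and -1.50 (adjusted p = 0.0877). The Feature Extraction mean in ErbB2-KD was -2.34 against -1.74. Its array 4 of labelled MUC4-KD was near 0 on this probe and at -1.99 on its probe A_24_P557479. TNFSF10 (the death ligand TRAIL) had means of -1.38 in labelled MUC4-KD and -0.79 in ErbB2-KD, PLSCR1 -0.97 and -0.50, and SHISA5 -0.99 and -0.31.

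The remaining interferon-induced proteins included the members with the largest ErbB2-KD ratios. IFI44L, a protein of little known function, gave -3.33, -3.53, -4.24 and -1.48 in ErbB2-KD, a mean of -3.15 (adjusted p = 0.0366). It gave -3.56, -3.56, -3.48 and -2.26 in labelled MUC4-KD (adjusted p = 0.00283). In ErbB2-KD its signal in the knockdown RNA was well above background on 2 of 4 arrays, and the Feature Extraction log ratios put the mean at -4.69, so the size of the ratio is not settled. LAMP3, a lysosomal membrane protein, gave -0.70, -4.62, -3.89 and -2.54 in ErbB2-KD (adjusted p = 0.0874) and -2.94, -2.62, -2.94 and -2.77 in labelled MUC4-KD (adjusted p = 0.000988). KLHDC7B, a kelch-domain protein, gave -0.52, -3.07, -2.98 and -2.89 in ErbB2-KD (adjusted p = 0.0693) and -2.77, -3.18, -3.15 and -3.61 in labelled MUC4-KD (adjusted p = 0.00138). Clone EV7 was the least low of the 4 for both of these genes. IFI44, the neighbour of IFI44L on chromosome 1, gave -1.34, -3.72, -3.66 and -0.70 in ErbB2-KD (adjusted p = 0.114) and -1.94, -1.56, -2.20 and -0.92 in labelled MUC4-KD (adjusted p = 0.00976). The related proteins IFI35 and NMI had labelled MUC4-KD means of -2.004 and -0.95, and NMI had the smallest spread of all members there, with an SD of 0.03. RTP4, a chaperone of receptors, gave -1.95, -2.11, -2.10 and -1.78 in labelled MUC4-KD (adjusted p = 0.00200) and 0.25, -0.55, -0.85 and 0.23 in ErbB2-KD, above 0 on arrays 1 and 4. EPSTI1 had means of -1.68 in labelled MUC4-KD (-2.35 by Feature Extraction) and -1.06 in ErbB2-KD.

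Taking the experiments side by side, 48 members had a mean below 0 in both (28.4% of the 11761 genes tested in both) and 28 were below 0 on all 8 arrays (4.53% of those genes). With the MUC4 sign turned, only SP100 would have a mean below 0 in both (22.3% of those genes) and no member would be below 0 on all 8 arrays. Across the 51 members the means of the 2 experiments had a Pearson r of 0.37 and a Spearman rho of 0.29, as a description over genes of one pathway, against 0.13 and 0.15 over all genes, and all 4 values change sign with the MUC4 sign. As labelled, order changed most for IFIT2, 13th lowest of the members in labelled MUC4-KD and 51st in ErbB2-KD, and for IFIT1 (3rd and 38th) and IFIT3 (4th and 37th). LY6E moved the other way, 40th in labelled MUC4-KD and 10th in ErbB2-KD, as did DTX3L (48th and 19th) and IFI44 (32nd and 4th). With the sign turned it changed most for SP100 (1st in the turned experiment and 48th in ErbB2-KD), IFI44L (47th and 1st), and OASL (50th and 7th) with KLHDC7B (46th and 3rd).

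**Figure D3:**
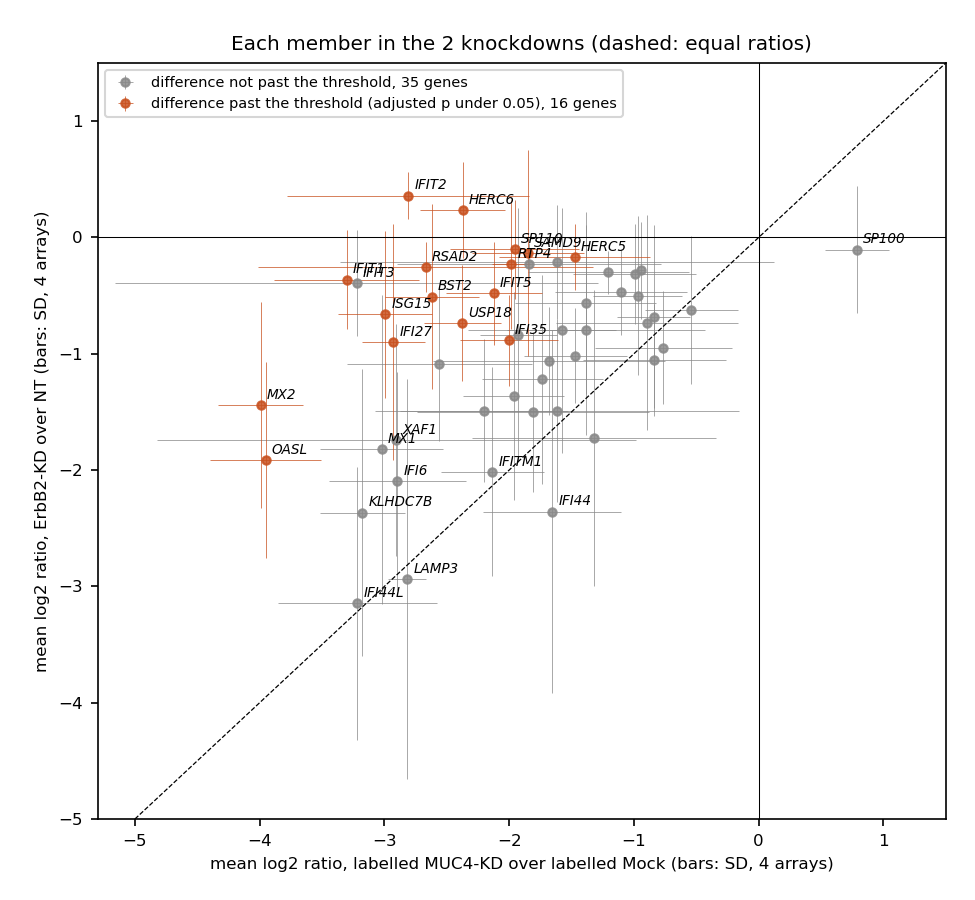
Mean log2 ratio of each member in labelled MUC4-KD over labelled Mock (horizontal) and in ErbB2-KD over NT (vertical), with SD over 4 arrays as bars; the dashed line marks equal ratios. The 16 genes in orange passed the test of the difference and all lie above the line.

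The experiments also differed in vector and control pool, which cannot be told apart from the knockdown when they are compared. The difference between the knockdowns was tested in 1 fit over the 8 arrays. It passed for 16 of the 51 members, all less low in ErbB2-KD, where 11.7% of all 12641 genes passed in either direction and 4.91% in this direction. At an unadjusted p under 0.05, 24 members differed, where 30.9% of all genes did. The difference was above 0 for 44 members, with a median of 0.81 against 0.02 for all genes. The largest were IFIT2 at 3.17 ± 0.42, IFIT1 at 2.94 ± 0.31 and HERC6 at 2.61 ± 0.25 (SE; adjusted p = 0.00502, 0.00245 and 0.00165). MX2, RSAD2, ISG15, BST2, OASL and IFI27 differed by between 2.03 and 2.55, and SP110, RTP4, SAMD9, IFIT5, USP18, HERC5 and IFI35 by between 1.12 and 1.86. RSAD2 entered this test through the control channels alone, so its call is no support for the list. IFI27 was matched only through the study's lists of changed genes, so its call is no support either. For SAMD9 the lowest ErbB2-KD array, at -1.36, lay below the highest labelled MUC4-KD array, at -1.29, so its groups overlapped. No member differed past the threshold toward lower values in ErbB2-KD (6.76% of all genes), and the lowest such difference was that of SP100, at -0.89 ± 0.27 (adjusted p = 0.0669), on the probe discussed above. GBP1, IFI44L, IFITM1, LAMP3, PARP12, PARP14, TRIM14 and UBA7 had differences between -0.18 and 0.17, with SEs of 0.32 to 0.70. That nearness to 0 holds for the labelled direction alone: with the MUC4 sign turned, their differences ran from -1.16 for UBA7 to -6.36 for IFI44L, with LAMP3 at -5.75 and IFITM1 at -4.15, and all 8 passed.

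**Figure D4:**
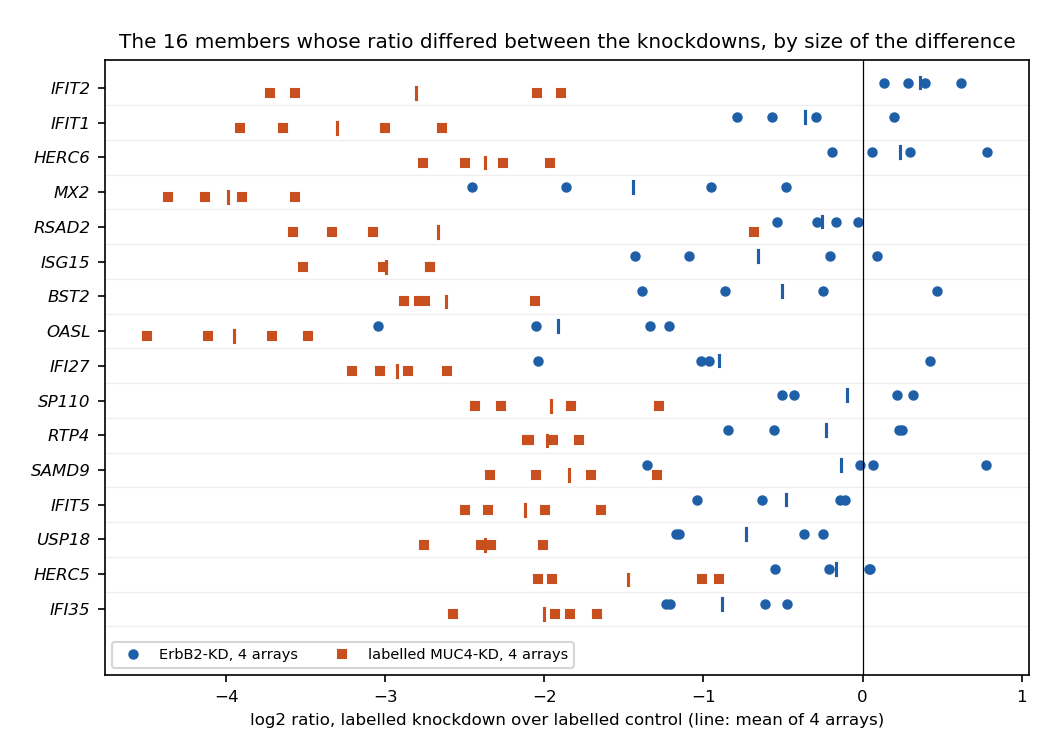
Log2 ratios on the single arrays for the 16 members whose difference passed (ErbB2-KD as blue circles, labelled MUC4-KD as orange squares, short lines for the means). The 2 sets of arrays overlap in SAMD9 and in no other of these genes. The genes were picked by the difference between these arrays, so their separation follows from that choice and is no further support.

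Both experiments were present on each of the 3 slides, so the difference was also taken within each slide. Its median over the members was 1.68 on slide 3 (50 of 51 above 0), 0.92 on slide 2 (42 above 0) and -0.000474 on slide 1 (25 above 0). Slide 1 held 1 array of each experiment, which were clone EV12, the lowest ErbB2-KD array, and labelled MUC4-KD array 4, the least low of its experiment. The count of 16 was 10 and 9 without labelled MUC4-KD arrays 1 and 3, 0 with median centring and 4 with the methods' t-test. Of all genes 4.15%, 3.27%, 0.459% and 2.86% passed in these settings, in this order. With the sign of the MUC4 experiment turned, 49 members passed, where 19.8% of all genes did, and the median difference of the members was -2.76. The 16 members above were among them, at -5.87 to -1.64.

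Upstream of these genes, a list of 28 other genes of the interferon pathway had 27 with a probe. In ErbB2-KD 18 were tested and 1 passed as lower, where 2.00% of all genes passed. The count was 0 without array 1, 3 or 4, where 0%, 0.0249% and 0.207% of all genes passed. In labelled MUC4-KD 23 were tested, of which 4 passed as lower and 5 as higher, 9 of 23 against 23.6% of all genes. Without array 1, 2 or 3 the count of 9 was 1, where 3.3%, 5.43% and 0.948% of all genes passed. IFNL2, 1 of the 4 lower, entered through the Mock channel alone, so its call is no support for the direction. IRF9, the DNA-binding part of the complex at the ISRE, gave -1.76, -1.45, -1.34 and -0.54 in labelled MUC4-KD (adjusted p = 0.0160) and -0.66, -1.67, -1.51 and -0.39 in ErbB2-KD (adjusted p = 0.106). STAT2, which joins IRF9 in that complex, gave -1.17, -0.92, -0.87 and 0.01 in labelled MUC4-KD (adjusted p = 0.0530) and 0.39, -0.07, 0.04 and 0.14 in ErbB2-KD, so that in ErbB2-KD IRF9 was below 0 on all arrays and STAT2 on 1.

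The other pathway genes did not move as one. IRF1, an activator that interferon gamma induces, was higher in labelled MUC4-KD, at 0.57, 0.68, 0.60 and 0.97 (adjusted p = 0.0175), and its repressing relative IRF2 was at 0.90, 1.02, 0.69 and 0.13 (adjusted p = 0.0409). IRF1 gave -0.70, -2.67, 0.07 and 0.12 in ErbB2-KD, low in clone EV12 and near 0 in clones EV9 and EV18. Both chains of the interferon gamma receptor were higher in labelled MUC4-KD, IFNGR1 at 0.26, 0.52, 0.61 and 0.40 (adjusted p = 0.0425) and IFNGR2 at 0.65, 0.72, 0.58 and 0.41 (adjusted p = 0.0215), and PIAS1, an inhibitor of STAT signalling, was at 0.24, 0.44, 0.37 and 0.63 (adjusted p = 0.0496). SOCS1, a feedback inhibitor of the kinases, was lower at -0.82, -0.99, -0.91 and -0.51 (adjusted p = 0.0135). For PIAS1, IRF2 and SOCS1 this rests on the brightest probe. The dimmer probes of PIAS1 and IRF2 had means of -0.08 and 0.01 in labelled MUC4-KD (limma adjusted p = 0.713 and 0.938). The dimmer SOCS1 probe had a mean of -0.35 there (limma adjusted p = 0.0894). Between the knockdowns, IFNGR2 differed by -1.26 ± 0.20 and IFNLR1, the type III receptor chain, by 1.16 ± 0.21 (ErbB2-KD minus labelled MUC4-KD, SE, adjusted p = 0.00857 and 0.0143). Neither call holds with the MUC4 sign turned, where IFNGR2 differed by -0.085 and IFNLR1 by 0.61 (adjusted p = 0.788 and 0.0769). SOCS1 differed by 0.83 ± 0.22 as labelled, on its brightest probe (SE, limma adjusted p = 0.0460). With the sign turned it passed in the opposite direction, at -0.79 (adjusted p = 0.0397). The receptor chains IFNAR1 and IFNAR2 and the kinases JAK1, JAK2 and TYK2 passed in no test, with means between -0.34 and 0.31, and IFNAR2 was too dim for the test in ErbB2-KD.

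Of 8 ligand genes with a probe, none was bright enough for a test in ErbB2-KD. IFNL2, a type III interferon, was lower in labelled MUC4-KD at -2.21, -1.40, -2.46 and -0.20 (adjusted p = 0.0370). Its labelled MUC4-KD RNA was well above background on 3 of 4 arrays, and the Feature Extraction mean was -3.50 against -1.57. IFNL2 thus entered the test through the Mock channel alone, so its p does not support the direction. IFNL2 and IFNL3 have near-identical sequences, and their probes may share signal. IFNL1 was at -0.93, -0.49, -0.85 and -0.05 (adjusted p = 0.0607), well above background in that RNA on 2 of 4 arrays and with a Feature Extraction mean of -2.24 against -0.58. IFNB1 (interferon beta) was not well above background in the labelled MUC4-KD RNA on any array and was well above it in the Mock pool on all 4. The bound for IFNB1 is at least 1.65-fold lower (adjusted p = 0.0552). Like IFNL2, both IFNL1 and IFNB1 entered the test through the Mock channel alone. On labelled MUC4-KD array 4 all 4 ligands tested lay between -0.20 and 0.01.

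**Figure D5:**
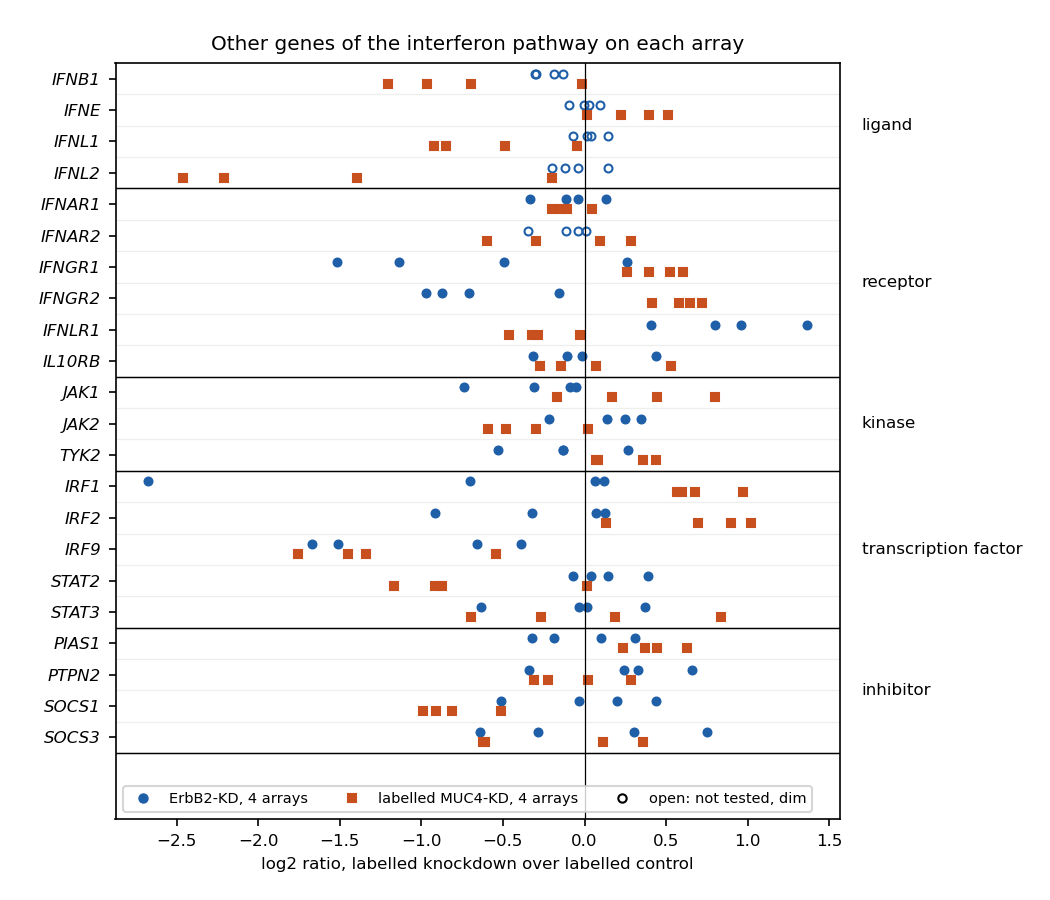
Log2 ratio on each array of other pathway genes tested in at least 1 experiment, by role (ErbB2-KD as blue circles, labelled MUC4-KD as orange squares, open symbols where the gene was too dim to be tested). Each gene is shown by its brightest probe. IRF9 lies below 0 on all 8 arrays, whereas IRF1, IRF2, IFNGR1, IFNGR2 and PIAS1 lie above 0 on all 4 labelled MUC4-KD arrays.

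Several probes of one member gave a check within the arrays. Over all 81 member probes, 80 had a mean below 0 in labelled MUC4-KD and 68 passed as lower, against 8.48% of all probes. In ErbB2-KD 72 of the 77 probes tested were below 0 and 2 passed as lower, the IFI44L probe and the second DTX3L probe, against 0.884%. The second IFIT2 probe gave -4.61, -2.73 and -3.64 on labelled MUC4-KD arrays 1 to 3, its spot on array 4 being an outlier, and 0.20, 0.08, -0.05 and -0.17 in ErbB2-KD, so that the ratios above 0 on all 4 arrays belong to 1 of the 2 probes. The second HERC6 probe stayed between -0.12 and 0.07 in ErbB2-KD and gave -1.74, -1.18, -1.94 and -0.13 in labelled MUC4-KD. The second MX2 probe gave -4.26, -3.78, -4.12 and -1.93 there. The second KLHDC7B probe gave -0.65, -2.12, -2.47 and -2.20 in ErbB2-KD, with clone EV7 again the least low. For HERC6 and MX2 the dimmer probe was thus nearer 0 than the brighter one on array 4 of labelled MUC4-KD. Other members went the other way there: a dimmer probe was at -0.79 against 0.84 for TRIM25 and at -1.99 against -0.35 for XAF1.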

How the data were processed

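RNA of CAPAN-2 clones was hybridised to 8 Agilent 2-colour whole human genome arrays, 4 with ErbB2-KD against a pool of 4 NT clones and 4 with MUC4-KD against a pool of 4 Mock clones. The deposited scanner files hold the intensity of each spot, which the authors obtained with Agilent Feature Extraction (version 10.5 in the submitters' processing notes, 10.5.1.1 in the file headers), and the log10 ratio of red over green that the same program deposited, already background-subtracted and dye-normalized. The series' value table and the fold changes and p-values of the study's own comparison lists were not used as values in the results. The lists gave names to 192 probes and showed the direction of the ratios. They hold only genes that the study called changed on these arrays. The probes of IFI27 and the dimmer probe of EPSTI1 were named in this way, so their calls are no support for the list.

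From the median spot intensities, background was corrected with normexp (offset 50) and arrays were loess-normalized in limma 3.58.1 (R 4.3.3). Control spots and outlier flags were left out, spots of a probe were averaged, and the dyes in the labels set the sign of each ratio. Probes entered the test where either the knockdown or the control channel was well above background on all 4 arrays. Names came from RefSeq accessions for 25398 probes, and 15410 probes stayed unnamed. A gene is given by its brightest probe. Means were tested against 0 with limma per experiment, and the difference in 1 limma fit over 8 arrays, with Benjamini-Hochberg adjustment over all probes tested and a threshold of 0.05. The pools leave out the spread of the controls, and for 4 arrays the smallest p of an exact sign-flip test is 0.125. No spot of a member was saturated, and the number of arrays limits the precision. On simulated data for ErbB2-KD with 200 of 23776 probes changed, 38.5% of changes of 1 and 86.5% of changes of 2 on the log2 scale were recovered. For labelled MUC4-KD (24942 probes) these shares were 30.5% and 83%, and for the difference (25723 probes) 36% and 85.5%, of whose calls 10% and 9.04% were false.

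Values on each array are given for the 12 members with the largest mean in each experiment, up to 12 members whose difference passed, members of opposite sign that passed, the 3 members nearest 0 in each experiment, STAT2, IRF9, IRF1, pathway genes that passed, and ERBB2 and MUC4. One gene of the pathway list enters the counts and is not reported here. Values of other probes and genes were added where they bear on one of these. The members and lists were chosen with earlier results of these data known. Alternatives covered the background correction, normalization, filters, probe choice, dye and slide terms, the test, the replicate block, the sign of the MUC4-KD ratios and leaving out each array. That sign was also turned for counts, order and pathway genes between the experiments, which was chosen after seeing the data. Promoter windows are RefSeq's on GRCh38.p14.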

Additional observations from a re-analysis of the deposited data

Results flagged for a closer look

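Of 102 groups of 4 arrays, 7 held a value far from the other 3 by Dixon's test, and chance gives about 1 in 20. Those of BST2, GBP1, IFI44L and, in 1 of its groups, EPSTI1 lay on labelled MUC4-KD array 4. There BST2 was at -2.06 against -2.88 to -2.75 on the other arrays, EPSTI1 at -0.31 against -2.26 to -1.95, GBP1 at 0.19 against -1.33 to -1.21, and IFI44L at -2.26 against -3.56 to -3.48. In ErbB2-KD, EPSTI1 was at -1.75 on array 3 against -0.94 to -0.78, KLHDC7B at -0.52 on array 1 against -3.07 to -2.89, and OAS3 at -0.41 on array 4 against -1.30 to -1.17.

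The ratio differed between the knockdowns for 16 members by limma, as ErbB2-KD minus labelled MUC4-KD on the log2 scale. In the group that binds RNA this was 3.17 for IFIT2 (adjusted p = 0.00502), 2.94 for IFIT1 (adjusted p = 0.00245), 2.04 for OASL (adjusted p = 0.0185) and 1.64 for IFIT5 (adjusted p = 0.00944). Around ISG15 it was 2.61 for HERC6 (adjusted p = 0.00165), 2.33 for ISG15 (adjusted p = 0.00740), 1.64 for USP18 (adjusted p = 0.00942) and 1.31 for HERC5 (adjusted p = 0.0277). It was 2.55 for MX2 (adjusted p = 0.00888), 2.41 for RSAD2 (adjusted p = 0.0310), 2.11 for BST2 (adjusted p = 0.0131) and 2.03 for IFI27 (adjusted p = 0.0248). For SP110 it was 1.86 (adjusted p = 0.00928), for RTP4 1.75 (adjusted p = 0.00740), for SAMD9 1.72 (adjusted p = 0.0362) and for IFI35 1.12 (adjusted p = 0.0290). Of these members RSAD2 entered the test through the control channels alone, so its call is no support for the list. IFI27 was matched only through the study's lists of changed genes, and its call is no support either.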

How the results depend on the processing

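The median member ratio stayed between -0.98 and -0.59 in ErbB2-KD, between -2.18 and -1.80 in labelled MUC4-KD and, other than with the sign of the MUC4-KD ratios turned (-2.76), above 0 for the difference. Counts of calls moved more. In ErbB2-KD the count of 1 became 5 with offset 10, 7 with the Feature Extraction log ratios, 9 with an intensity trend and robust eBayes, 15 with 1 fit over all 8 arrays, 2 with the mean of all probes, and 19 at 2-fold and an unadjusted p under 0.01. It was 0 by limma with median centring (28 members at an unadjusted p under 0.05), no filter (29), a dye term (30) and a filter on both channels (28 of 47 tested, IFI44L not being one of them), and 0 by the methods' t-test (19), also at 2-fold and p under 0.01. Leaving out 1 array gave 0 to 2. Of all genes 2.11% passed with offset 10, 2.55% with the Feature Extraction log ratios, 2.91% with the trend and 5.73% with 1 fit. No filter, a dye term and a filter on both channels left 0.214%, 1.15% and 1.69%. At 2-fold and an unadjusted p under 0.01 by limma, 241 of 12063 genes were lower. In labelled MUC4-KD the count of 46 became 0 with median centring (33 at an unadjusted p under 0.05), 5 with the methods' t-test, or 27 at 2-fold and p under 0.01, and 18 to 51 without 1 array. The count of 16 differences became 0 with median centring (12 at an unadjusted p under 0.05), 4 with the methods' t-test, 49 with the sign turned, and 9 to 23 without 1 array. Over all genes median centring left 22 calls in ErbB2-KD (241 with loess), 0 in labelled MUC4-KD (2911) and 58 for the difference (1475). For the pathway list the count of 1 in ErbB2-KD was 2 with the Feature Extraction log ratios, 0 with no filter or median centring and 0 to 1 without 1 array, and the count of 9 in labelled MUC4-KD was 0 with median centring and 1 to 12 without 1 array. The cause of these changes was not tested.

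Single genes turned sign as follows. Without 1 array, SP100 in ErbB2-KD ran from -0.37 (array 2 out) to 0.018 (array 1 out), SP110 from -0.24 to 0.034 (array 2 out, and 0.0088 with array 3 out), and SAMD9 from -0.44 to 0.27 (array 3 out). In labelled MUC4-KD SP100 was at -0.25 as the mean of all its probes. With the sign turned the differences were -2.45 for IFIT2, -3.66 for IFIT1, -2.14 for HERC6, -5.43 for MX2, -2.92 for RSAD2, -3.65 for ISG15, -3.13 for BST2, -5.87 for OASL, -3.83 for IFI27, -2.06 for SP110, -2.22 for RTP4 and -1.98 for SAMD9, and the other 4 that passed turned too. Samples with the same replicate number did not deviate together (r of -0.12, -0.24, -0.05 and -0.13), and with the replicate block the count of 16 was 11, where 3.05% of all genes passed. With the slide as a random block, its correlation of 0.016 estimated over all 8 arrays, the counts stayed at 1, 46 and 16. Low signal bears on IFI44L, OAS2, RSAD2 and TRIM22 in ErbB2-KD, whose knockdown RNA was well above background on 2, 2, 1 and 3 of 4 arrays, and on RSAD2 in labelled MUC4-KD, on 3.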
